A study of Mus musculus with 21 samples.

Results

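Array comparative genomic hybridization (aCGH) was used to measure DNA copy number in 21 liver tumours from 14 C57BL/6 mice, and the tumours were divided here into an aneuploid and a quiet class. A tumour was called aneuploid when 3 or more of its 19 autosomes had an absolute mean log2 ratio of 0.2 or more, and quiet when none had. The rule placed 5 tumours of 4 mice in the aneuploid class and 12 tumours of 10 mice in the quiet class, and 4 tumours with 1 or 2 such autosomes stayed in neither. The classes were thus chosen by the autosome means themselves, so that differences between them in mean log2 ratios are given as a description with no test.

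All mice received 12 months of CD-HFD, a high-fat diet that lacks choline and causes steatohepatitis (NASH) and, in some animals, liver tumours. In the CD-HFD group (9 tumours, 7 mice) no antibody was given. The anti-PD1 group (12 tumours, 7 mice) received 8 weeks of antibody against PD1, an inhibitory receptor on T cells. The paper's methods describe such antibodies as given for 8 weeks to male mice on CD-HFD. The labels give no such 8 weeks for the CD-HFD group, and whether these mice were kept for them is not stated for these tumours, so that extra time, if any, and antibody cannot be told apart. Tumour DNA from fixed, paraffin-embedded sections was labelled with Cy3 and a shared C57BL/6 pool, labelled in the records as liver tails, with Cy5. A mouse gave 1 to 3 tumours, named by mouse and lesion (608 L1 is lesion 1 of mouse 608), and lesions of 1 mouse are not independent.

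Aneuploidy is a gain or loss of whole chromosomes, which arises when chromosomes are missegregated in mitosis. In this assay, DNA that is over-represented in the tumour relative to the pool gives a positive log2 ratio and under-represented DNA a negative one. In a sample made wholly of tumour cells, a chromosome reduced from 2 copies to 1 gives -1 and one raised from 2 to 3 gives 0.58. For 1 copy lost or gained from a set of 4, the values are -0.42 and 0.32. A section also contains normal cells, and hepatocytes are often polyploid, so that few cells with a change and a small change per cell cannot be told apart. Each array was centred on its own median, so that gains in a large part of a genome push the rest below 0.

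The measurement rests on short DNA probes, designed to pair with the tumour and reference DNA at known places in the genome. The 60-base probes below are shown as examples of what the arrays read on chromosomes described here, and lie on both array designs. They mark Mdm4 on chromosome 1, Cdkn2a on 4, Ttk on 9 and Myc on 15. They are written 5′ to 3′ with G and C in capitals, since the share of these bases moved with the log2 ratios.
Mdm4: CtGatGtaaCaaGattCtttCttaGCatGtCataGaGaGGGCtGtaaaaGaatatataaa
Cdkn2a: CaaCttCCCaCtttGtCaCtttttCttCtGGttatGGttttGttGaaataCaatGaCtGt
Ttk: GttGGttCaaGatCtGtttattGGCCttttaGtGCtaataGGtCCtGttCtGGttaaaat
Myc: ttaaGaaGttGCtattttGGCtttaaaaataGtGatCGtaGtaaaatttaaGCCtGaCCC
In the file's build, mm9, these probes lie at chr1:134905729-134905788, chr4:88934358-88934417, chr9:83749642-83749701 and chr15:61818043-61818102. Their sequences also match the plus strand of build GRCm38 exactly once, where GENCODE vM21 places the Mdm4 probe in a coding exon and the other 3 within introns. Single probes separated the tumours with a changed chromosome from the quiet tumours in some cases and not in others. The Ttk probe read -0.46 in 608 L1 and -0.73 in 608 L6, where chromosome 9 was lost. It read -0.37 in 1770 L1, -0.26 in 2064 L1 and -0.32 in 2088 L1. In the quiet tumours it lay between -0.62 and -0.12, so that the ranges of lost and quiet tumours overlapped. The Myc probe read 1.38 in 608 L1, 0.54 in 608 L6 and 0.77 in 2064 L1, where chromosome 15 was gained, 0.64 in 2088 L1 and 0.49 in 1770 L1, against -0.36 to 0.56 in the quiet tumours. The Cdkn2a probe read -1.19 in 1770 L1 and -0.39 in 2064 L1, where chromosome 4 was lost, and -0.10 in 608 L1, -0.08 in 608 L6 and 0.24 in 2088 L1, against -0.23 to 0.62 in the quiet tumours, so that the pair with the loss lay below the quiet range. The Mdm4 probe read 0.08 in 2064 L1, 0.80 in 608 L6 and 0.71 in 2088 L1, where chromosome 1 was gained. It read 0.39 in 1770 L1 and 0.02 in 608 L1, against -0.03 to 0.77 in the quiet tumours.

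The 21 autosomal profiles differed first in how far the autosomes stood apart. The 5 aneuploid tumours had 29 altered autosomes between them, of which 16 were gained and 13 lost. Lesion 608 L6 had 10 altered autosomes, 2064 L1 had 8, 608 L1 and 1770 L1 had 4 each, and 2088 L1 had 3. Mean log2 ratios of the gained autosomes ran from 0.20 to 0.46 with a median of 0.35, and those of the lost autosomes from -0.42 to -0.21 with a median of -0.26. The 228 autosome means of the quiet tumours lay between -0.17 and 0.19. When each autosome's probes were split into odd and even ones, the 2 means differed by at most 0.06 for the altered autosomes and by at most 0.08 for all 399 autosome means. This split measures the sampling of probes and does not see a bias that neighbouring probes share, such as that of base composition.

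**Figure D1:**
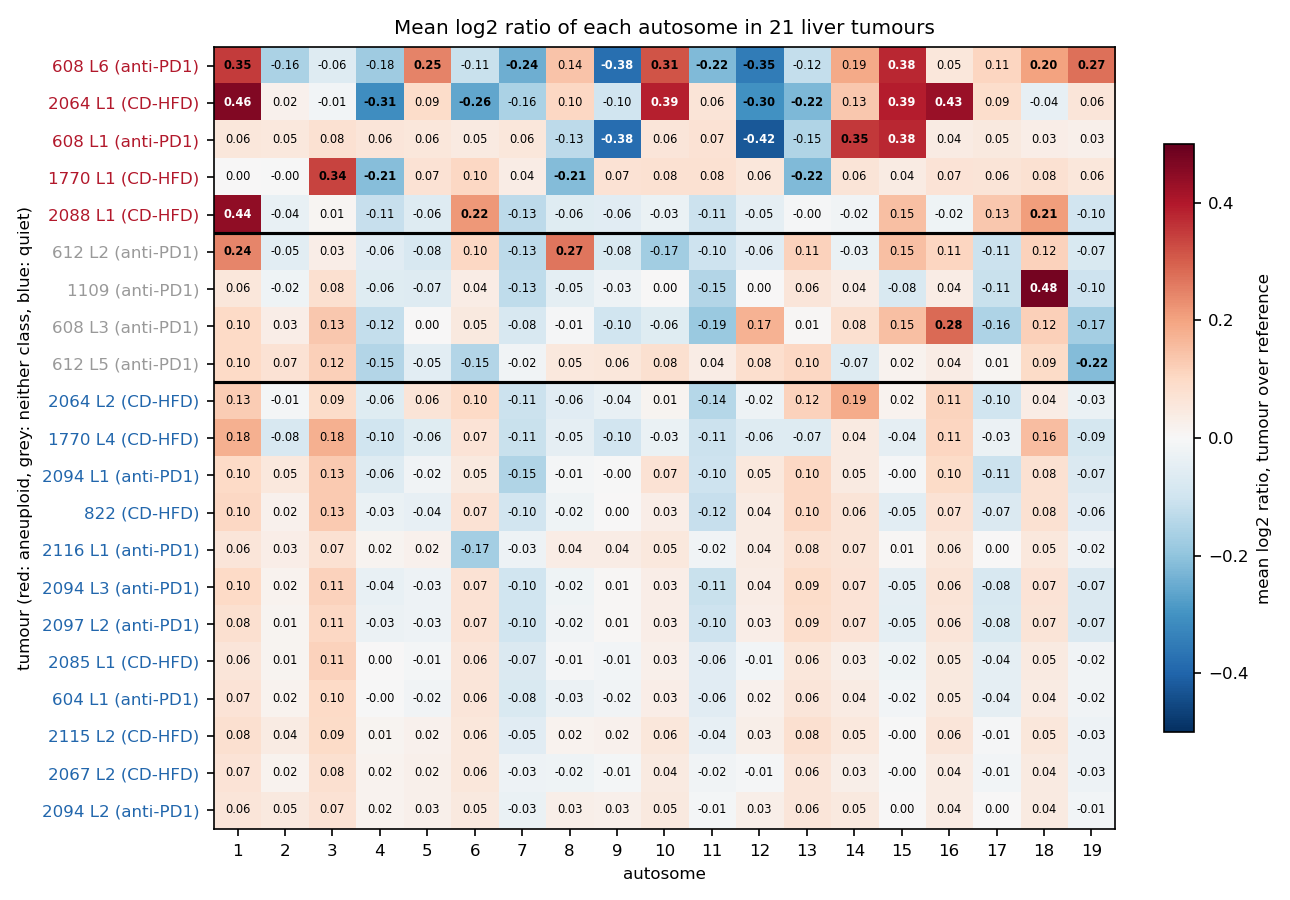
Mean log2 ratio, tumour over reference, of the 19 autosomes (columns) in the 21 tumours (rows, with treatment), in colour and as a number, bold at an absolute value of 0.2 or more. The 5 aneuploid tumours at the top hold 29 bold values, and the 12 quiet tumours at the bottom hold none, with values from -0.17 to 0.19.

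Membership at the edges was narrow for some tumours. In 2088 L1 the chromosome 18 mean that made it aneuploid was 0.21, and in 1770 L1 the means of chromosomes 4 and 8 were both -0.21. Just outside, 612 L2 had gains of chromosomes 1 (0.24) and 8 (0.27) and reached -0.17 on chromosome 10. Among quiet tumours, 2064 L2 reached 0.19 on chromosome 14 and 1770 L4 reached 0.18 on chromosome 1, and 612 L5 missed the quiet class with -0.22 on chromosome 19.

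Chromosomes 1, 12 and 15 were altered in the most aneuploid tumours, 3 of 5 each. Chromosome 1, which carries Mdm4, a negative regulator of p53, was gained in 2064 L1 (0.46), 2088 L1 (0.44) and 608 L6 (0.35), each of a different mouse. It stood at 0.06 in 608 L1 and 0.00 in 1770 L1, against 0.06 to 0.18 in the quiet tumours. Chromosome 15, which carries the growth-promoting transcription factor gene Myc, was gained in 2064 L1 (0.39), 608 L1 (0.38) and 608 L6 (0.38), against 0.15 in 2088 L1 and 0.04 in 1770 L1. All 5 of these values lay above the quiet range of -0.05 to 0.02. The value of 1770 L1 was below the median of its own unaltered autosomes (0.06), and is no rise relative to them. Chromosome 12 was lost in the same 3 tumours as gained chromosome 15, with -0.42 in 608 L1, -0.35 in 608 L6 and -0.30 in 2064 L1. The remaining aneuploid tumours had 0.06 (1770 L1) and -0.05 (2088 L1), against a quiet range of -0.06 to 0.05.

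A further 6 autosomes were altered in 2 aneuploid tumours each. Chromosome 9 was lost only in the lesions of mouse 608, at -0.38 in both, with -0.10 in 2064 L1, -0.06 in 2088 L1 and 0.07 in 1770 L1. Chromosome 10 was gained in 2064 L1 (0.39) and 608 L6 (0.31), and the other 3 aneuploid tumours lay between -0.03 and 0.08. Chromosome 4, home of the tumour suppressor Cdkn2a, was lost in 2064 L1 (-0.31) and 1770 L1 (-0.21). The same pair had lost chromosome 13 (-0.22 and -0.22).

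On chromosome 4 the values of 608 L6 (-0.18) and 2088 L1 (-0.11) were also below the quiet range of -0.10 to 0.02, and 608 L1 stood at 0.06. On chromosome 13, 608 L1 had -0.15, 608 L6 had -0.12 and 2088 L1 had 0.00. Chromosome 6 changed in opposite directions, with a loss in 2064 L1 (-0.26) and a gain in 2088 L1 (0.22), and the other 3 lay between -0.11 and 0.10. Chromosome 18 was gained at the edge of the threshold in 2088 L1 (0.21) and 608 L6 (0.20), with 0.08 in 1770 L1, 0.03 in 608 L1 and -0.04 in 2064 L1.

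Of the other autosomes, 8 were altered in 1 aneuploid tumour each and 2, chromosomes 2 and 17, in none. The single changes included gains of chromosome 3 in 1770 L1 (0.34), 14 in 608 L1 (0.35), 16 in 2064 L1 (0.43) and 19 in 608 L6 (0.27). No autosome was gained in 1 and lost in another aneuploid tumour except chromosome 6. Chromosome 17 lay above the quiet range of -0.11 to 0.00 in all 5 aneuploid tumours (0.05 to 0.13) without passing the threshold in any. In 608 L1 (0.05) and 1770 L1 (0.06) it did not exceed the median of the tumour's own unaltered autosomes (0.05 and 0.06). For these tumours its place above the quiet range is thus no rise relative to their other autosomes. Chromosomes 15 and 17 were the 2 autosomes on which the classes did not overlap.

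Along most of their length, the altered autosomes lay on the side of their mean. They were chosen by the mean of the whole autosome, which favours even changes over partial ones, so that this is a description. Mouse chromosomes have their centromere at 1 end, and each was divided at its midpoint into a centromere-side and a telomere-side part. Both parts lay on the same side of 0 in all 29 altered autosomes, and both passed 0.2 in 23. Windows of 5 Mb fell on the side of the chromosome's mean in every window for 24 of the 29, and in at least 96.0% of windows for each. In 608 L1, for example, chromosome 9 read -0.39 in the centromere-side and -0.37 in the telomere-side part, chromosome 12 read -0.42 and -0.43, and its 15 unaltered autosomes had a median of 0.05. Chromosomes 8 (-0.13) and 13 (-0.15) of this lesion were also lower along their whole length without reaching the threshold. A change within a chromosome was seen on chromosome 1 of 1770 L1, where the centromere-side part read 0.10 and the telomere-side part -0.10.

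**Figure D2:**
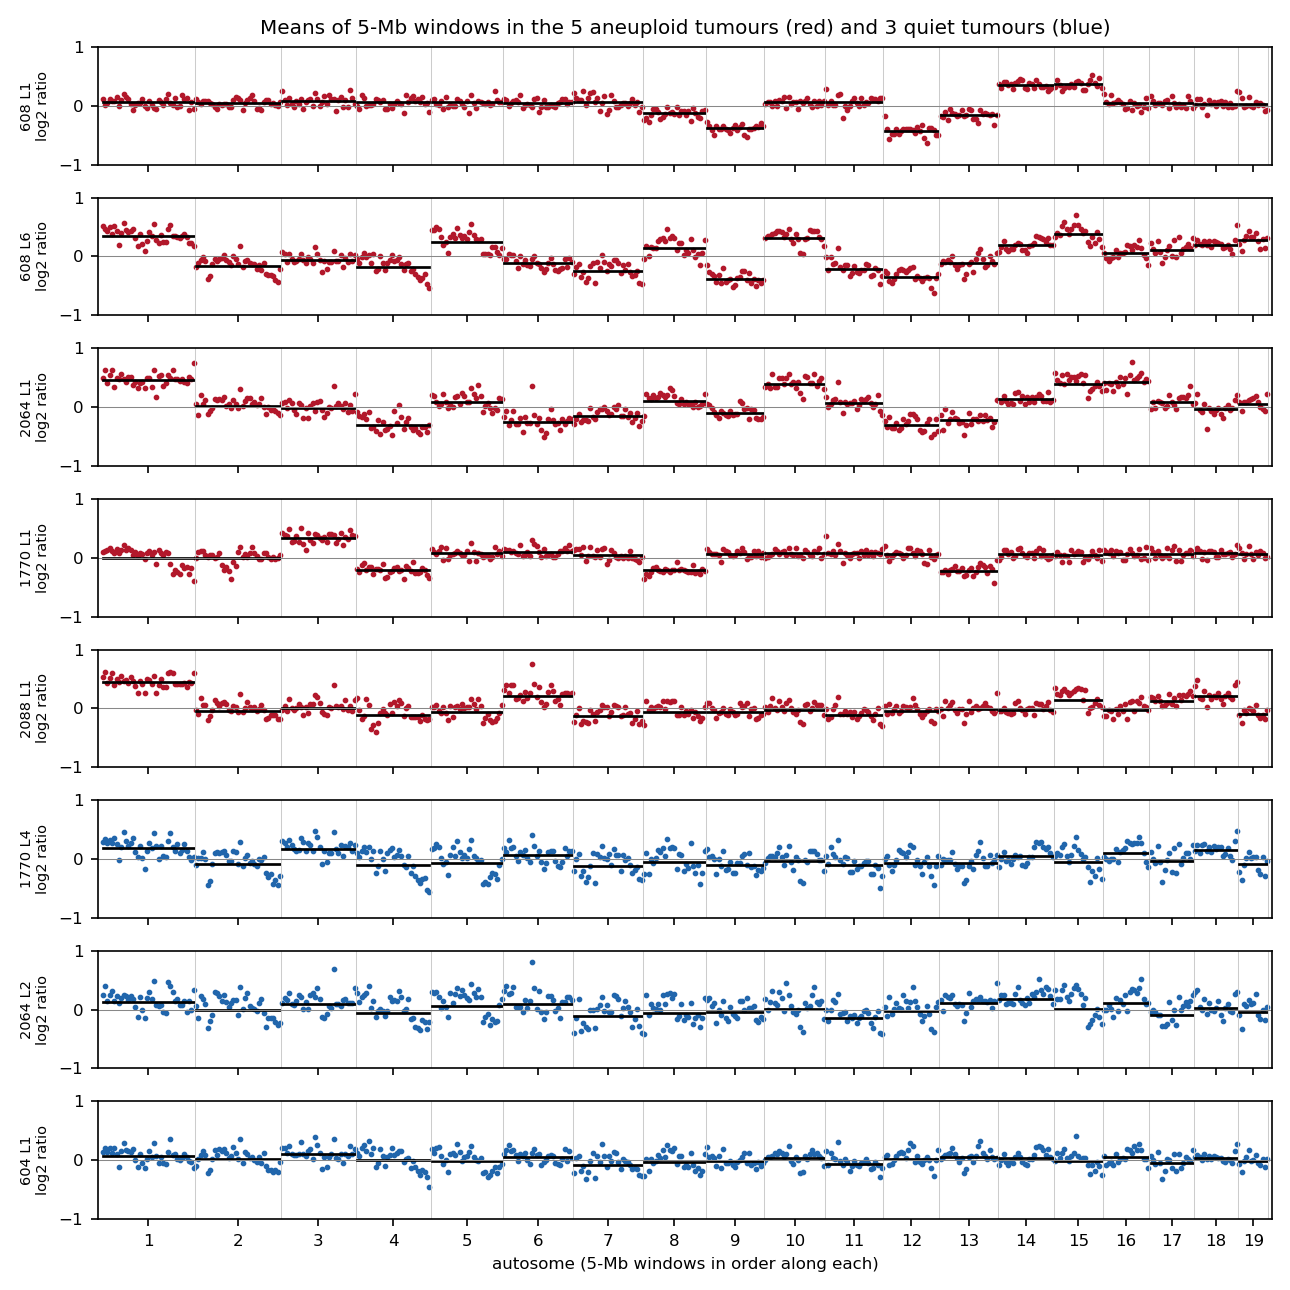
Mean log2 ratio of 5-Mb windows (points) in order along the 19 autosomes, and the mean of each autosome (black lines), in the 5 aneuploid tumours (red) and the quiet tumours 1770 L4, 2064 L2 and 604 L1 (blue). Losses of chromosomes 9 and 12 and gains of 14 and 15 in 608 L1 run from end to end, with parts between -0.43 and 0.40, while the quiet tumours keep a wave shared by many tumours.

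Gains and losses occurred together in 4 aneuploid tumours, and 2088 L1 had gains alone. As a share of the autosomal length, gains and losses took 29.7% and 21.02% in 608 L6, 21.4% and 22.1% in 2064 L1, and 9.25% and 9.92% in 608 L1. In 1770 L1 losses were larger (16.5% lost, 6.46% gained). In 2088 L1 no autosome was lost and 17.7% was gained. The centring on each array's median bears on this balance. Relative to the median of a tumour's own unaltered autosomes, the chromosome 7 (-0.18) and 11 (-0.16) losses of 608 L6 fell short of 0.2. Chromosomes 8 (0.21) and 14 (0.25) of 608 L6, 7 of 2064 L1 (-0.22) and 13 of 608 L1 (-0.20) then passed it, for 18 gains and 13 losses in all. Among the 4 tumours in neither class, 4 gains and 1 loss were found.

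**Figure D3:**
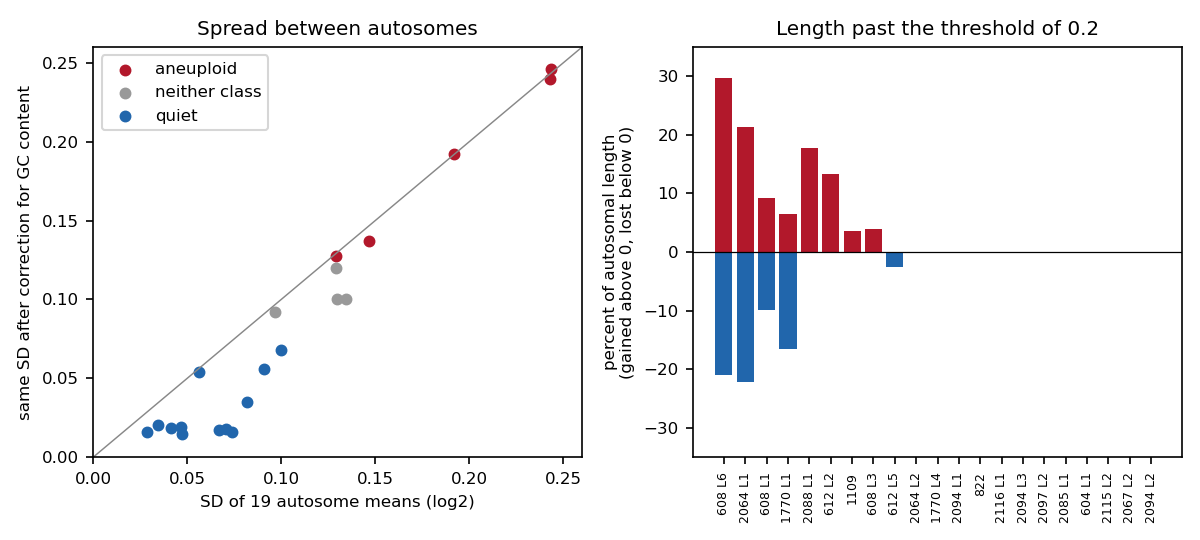
Left, SD of the 19 autosome means of each tumour before (x axis) and after (y axis) correction for GC content, with the line of equality; right, percent of autosomal length in autosomes at or past 0.2 (gained above 0, lost below 0). Aneuploid tumours stay near the line, and most quiet tumours fall below it, with a median of 0.06 before and 0.02 after correction.

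At a finer scale, the same log2 ratios were described in windows, which is no independent check of the classes. For each tumour, every 5-Mb window was set against the median of that window in the other 20 tumours, and the share of windows that stood 0.2 or more away was 0.600% to 5.40% in the quiet tumours (median 2.90%) and 13.6% to 45.8% in the aneuploid tumours (median 37.4%). The latter share includes the altered autosomes. On the other autosomes it was 4.14% in 2088 L1, within the quiet range, 9.93% in 2064 L1, 17.7% in 1770 L1, 22.8% in 608 L6 and 26.4% in 608 L1. The lowest aneuploid value was that of 2088 L1 and the highest quiet value that of 1770 L4. In 5 quiet tumours a centromere-side or telomere-side part of an autosome nevertheless passed 0.2. After correction for GC content 1 was left, the telomere-side part of chromosome 6 in 2116 L1 (-0.21). The rule thus selects tumours without whole-autosome changes at this threshold, and does not exclude a change in a part of an autosome, as in 2116 L1.

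The base composition of the probes moved with the log2 ratios in every tumour. Across autosomal probes of 1 array, which are not independent replicates, the correlation with probe GC content ran from -0.25 to -0.17 in aneuploid tumours and from -0.36 to -0.16 in quiet tumours. With the GC content of the surrounding 50 kb the correlations were -0.26 to 0.03 and -0.46 to -0.13. After correction for both, the SD of the 19 autosome means fell from a median of 0.06 to 0.02 in the quiet tumours, while in the aneuploid tumours it was 0.19 before and after. All 29 altered autosomes kept their sign after this correction and 24 remained at or past 0.2. The 5 that did not were chromosomes 7, 11 and 18 of 608 L6 (-0.19, -0.14 and 0.18) and chromosomes 6 and 18 of 2088 L1 (0.18 and 0.16), so that 2088 L1 then had 1 altered autosome and left the class. With normexp background correction and an added offset of 50 in place of the scanner's subtraction, all 29 kept their sign but 9 remained at or past 0.2. Under this setting 608 L1 and 1770 L1 had no altered autosome. Method and offset were changed together, and their separate effects were not tested.

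Both lesions of mouse 608 in the aneuploid class had lost chromosomes 9 and 12 and gained 15, which are 3 of the 4 changes of 608 L1 and 3 of the 10 of 608 L6. The gain of chromosome 14 in 608 L1 (0.35) stood beside 0.19 in 608 L6. Lesions 608 L6 and 2064 L1, of different mice and treatments, shared 4 changes, the gains of 1, 10 and 15 and the loss of 12 (4 of 10 and 4 of 8). Different lesions of a mouse could fall in different classes. The lesions 1770 L4 and 2064 L2 were quiet beside 1770 L1 and 2064 L1, and 608 L3, with 1 altered autosome (16, 0.28), was in neither class.

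The sex chromosomes were not part of the rule. The X mean ran from -0.02 (608 L6) to 0.42 (2088 L1) in the aneuploid tumours, with 0.01 in 2064 L1, 0.13 in 1770 L1 and 0.14 in 608 L1, against 0.06 to 0.25 in the quiet tumours. Higher X values of 0.36 and 0.48 were found in 608 L3 and 612 L5, in neither class. The Y chromosome was covered by 134 probes on the design of slide 1, where 608 L1 had -0.35 ± 0.09 (SE over probes), 608 L6 had -0.09 ± 0.06 and 1770 L1 had 0.08 ± 0.07, against 0.15 to 0.27 in its 4 quiet tumours. The remaining tumour of the slide, 612 L2 in neither class, had -0.22. After GC correction 1770 L1 (-0.01) lay within the quiet range of -0.09 to 0.13, and 608 L1 (-0.41), 612 L2 (-0.38) and 608 L6 (-0.26) lay below it. On the other design only 4 probes lay on Y, too few for a comparison.

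Genes known in liver cancer, growth control and mitosis were read locally, from the same log2 ratios that the rule used, so that the values describe the loci and test nothing. Of 41 listed genes, 38 had a named probe, and each was read as the mean of all probes within 500 kb of its own. In the 54 pairs of a gene and an aneuploid tumour in which the gene lay on an altered autosome, the local mean was on the side of the autosome in 51 (94.4%) and past 0.2 on that side in 42 (77.8%). Over all windows of 1 Mb on altered autosomes the shares were 95.1% and 74.2%. Exceptions in 2064 L1 were Jun (0.14) on the lost chromosome 4 and Mad2l1 (0.14) on the lost chromosome 6. Some loci stood away from 0 in the quiet tumours too, with medians of 0.33 at Rb1 and -0.30 at Arid1a, and local values are therefore given with the quiet range. Over all windows of 1 Mb in the 5 aneuploid tumours, 23.9% of values lay above the range of the quiet tumours and 24.7% below it.

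Among the growth genes, the Myc locus read 0.38 in 608 L6, 0.36 in 608 L1, 0.24 in 2064 L1, 0.11 in 2088 L1 and -0.07 in 1770 L1. The quiet range was -0.25 to 0.01, so that all but 1770 L1 lay above it. Mdm4 read 0.37 in 2064 L1, 0.34 in 2088 L1, 0.31 in 608 L6, 0.19 in 1770 L1 and 0.04 in 608 L1, against -0.26 to 0.17.

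Mdm2, which encodes the ubiquitin ligase for p53 and lies on chromosome 10, read 0.46 in 608 L6, 0.43 in 2064 L1, 0.24 in 608 L1 and in 1770 L1, and 0.00 in 2088 L1 (quiet 0.05 to 0.26). Yap1, an effector of Hippo signalling, and its neighbour Birc2, an inhibitor of apoptosis, lie on chromosome 9 and were low in both 608 lesions. Yap1 read -0.31 and -0.39 there and between -0.02 and 0.07 in the others (quiet -0.15 to 0.17). Ctnnb1, which encodes beta-catenin on the same chromosome, read -0.31 in 608 L1, -0.43 in 608 L6 and between -0.18 and 0.22 in the others (quiet -0.24 to 0.08).

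On chromosome 6, the receptor kinase gene Met read -0.22 in 2064 L1 and 0.41 in 2088 L1, against 0.01 to 0.36 in quiet tumours. The kinase gene Braf had -0.22 and 0.27 in these tumours (quiet -0.13 to 0.27). Tert on chromosome 13, the catalytic subunit of telomerase, ran from -0.34 in 608 L6 to 0.04 in 2088 L1 (quiet -0.26 to 0.21), and the transcription factor gene Jun on chromosome 4 from -0.34 in 1770 L1 to 0.27 in 2088 L1 (quiet -0.09 to 0.35). Over the 16 growth genes and 5 aneuploid tumours, 25 of 80 local means (31.3%) lay above the quiet range and 18 (22.5%) below it, beside the 23.9% and 24.7% over all windows.

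Among the tumour suppressors, Cdkn2a, an inhibitor of cyclin-dependent kinases, read -0.54 in 2064 L1. This was 0.23 below the mean of its lost chromosome 4 and below the quiet range of -0.05 to 0.32, and the other aneuploid tumours read -0.11 (1770 L1), -0.09 (2088 L1), 0.01 (608 L6) and 0.08 (608 L1). Arid1a, a chromatin remodelling subunit on the same chromosome, ran from -0.48 in 2064 L1 to 0.01 in 608 L1 (quiet -0.45 to -0.10). Keap1 on chromosome 9, the inhibitor of NRF2, read -0.58 in 608 L6, -0.34 in 2088 L1, -0.31 in 2064 L1, -0.24 in 608 L1 and 0.12 in 1770 L1, against -0.46 to -0.09. Arid2, a chromatin remodelling subunit on chromosome 15, read 0.69 in 2064 L1, 0.58 in 608 L1 and 0.50 in 608 L6, where the chromosome was gained, and 0.36 in 1770 L1 and 0.31 in 2088 L1 (quiet 0.07 to 0.31). In all, 19 of 45 local means of the 9 suppressors (42.2%) lay above and 5 (11.1%) below the quiet range, beside 23.9% and 24.7% over all windows. Most of the values above it came from 608 L1 and 1770 L1, the arrays with the lowest tumour signal. Local means and quiet ranges of all gene lists were not corrected for GC content. The correlation with the GC content of the surrounding 50 kb was 0.03 in 608 L1 and -0.04 in 1770 L1, against -0.46 to -0.13 in the quiet tumours. The cause was not tested.

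The mitotic genes gave 11 of 45 values above the quiet range (24.4%) and 9 below it (20%), beside 23.9% and 24.7% over all windows. Ttk, the kinase MPS1 of the spindle assembly checkpoint, read -0.47 in 608 L1 and -0.46 in 608 L6, where chromosome 9 was lost, and -0.12 to -0.04 in the others (quiet -0.15 to 0.03). Mad2l1, which encodes the checkpoint protein MAD2 on chromosome 6, ran from 0.14 to 0.45, within the quiet range of -0.13 to 0.46. Ccnb1, the mitotic cyclin B1 gene on chromosome 13, read -0.18 to -0.06 (quiet -0.06 to 0.18), below the quiet range in all 5. For the PD1 axis, the Pdcd1 locus on chromosome 1 read 0.41 in 2088 L1 and 0.37 in 2064 L1 with -0.11 to 0.11 in the others (quiet -0.23 to 0.10). The gene for its ligand PDL1, Cd274, read -0.05 to 0.32 (quiet -0.10 to 0.07). Nfe2l2, which encodes NRF2, read -0.22 in 1770 L1, 0.04 in 2064 L1, 0.13 in 608 L1 and in 608 L6 and 0.15 in 2088 L1, against 0.14 to 0.43, so that 4 of 5 lay below the quiet range. Sqstm1, which encodes p62, read -0.19 to 0.13 (quiet -0.28 to 0.03).

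Treatment was not used by the rule and was compared with mice as the units. Altered autosomes per tumour averaged 1.07 ± 1.84 (SD, n = 7 mice) with anti-PD1 and 1.29 ± 1.70 (n = 7) with CD-HFD alone, a difference of -0.21 that was within the spread (two-sided exact permutation test over mice, p = 0.886). In each group 4 mice had no altered autosome, and the highest values were 5 in mouse 608 and 4 in mouse 2064. The share of a mouse's tumours that were aneuploid averaged 9.52% ± 25.2 with anti-PD1, where mouse 608 alone contributed, and 28.6% ± 39.3 without (two-sided exact permutation test, n = 7 and 7 mice, p = 0.437). By tumour, 2 of 12 were aneuploid with anti-PD1 and 3 of 9 without, and all 4 tumours in neither class were from anti-PD1 mice. Within slide 1 the mean number of altered autosomes was 4 with anti-PD1 and 1 without, within slide 2 it was 0 and 2.75, and within slide 3 it was 0.75 (4 tumours) and 0 (1 tumour), so that the direction differed between slides. Leaving out mouse 2064 or 2088 turned the difference positive, by up to 0.24.

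Within each class, treatment was also compared along the genome with limma. In the aneuploid tumours (2 anti-PD1, 3 CD-HFD), 2 of 2107 windows of 1 Mb passed an adjusted p of 0.05, a background of 0.0949% called, both lower with anti-PD1. Since both anti-PD1 tumours of this class came from mouse 608, treatment and mouse cannot be told apart there. The calls set 2 lesions of 1 mouse, fitted as separate samples, against 3 other mice and are no test of treatment, and the correlation of lesions within a mouse could not be estimated. In the quiet tumours (6 against 6) none of 2107 windows passed with mouse as a random block (limma, 0% called, 20 at an unadjusted p under 0.05). The rule kept the autosome means of this class under 0.2 in size, which limits the shift that whole chromosomes of this class can show. The autosome means themselves chose the classes, and their differences by treatment are a description. In the aneuploid tumours, the difference was largest in size on chromosome 9, with -0.38 against -0.03, and in the quiet tumours on chromosome 6, with 0.02 against 0.07. The latter rested largely on 2116 L1, which read -0.17, while the other anti-PD1 tumours of the quiet class read 0.05 to 0.07.

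In the aneuploid class, a window that passed at chr12:108000000-109000000 of mm9 was described after its values were seen. It had a mean of -0.66 in the 2 anti-PD1 and 0.20 in the 3 CD-HFD aneuploid tumours, a difference of -0.86. Chromosome 12 means were among the values that chose the class, and this difference is given as a description. The level of the window moved with the array design. On slide 1, where it held 11 probes, the 2 tumours that had lost chromosome 12 read -0.67 and -0.65 and the other 6 read -0.31 to -0.19, 1770 L1 with -0.22 among them. On slides 2 and 3, where it held 5 probes, 2064 L1 with the loss read 0.16 and the other 12 read 0.60 to 0.87. Both anti-PD1 tumours of the class were on slide 1 and 2 of the 3 CD-HFD tumours on slide 2, and the window no longer passed with slide as a fixed block, when 1 window was called. With single aneuploid tumours left out, 1 to 11 windows were called, and the number moved by more than 1.5 times without 608 L1, 608 L6, 1770 L1 or 2088 L1. Without 608 L1 or 608 L6 the anti-PD1 arm is a single tumour, assumed to vary like the CD-HFD tumours, which alone supply the spread.

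Finally, the arrays of the 2 classes were compared in 8 measures, by two-sided exact permutation tests over tumours (n = 5 and 12) with Benjamini-Hochberg adjustment over the 8. The tests count lesions of the same mouse as independent units, which they are not. None of the measures entered the rule as such. The noise between neighbouring probes and the SD of repeated spots were, however, computed from the log2 ratios that the rule averaged. Their tests are thus not independent of the classes. The median background-subtracted tumour signal was 27.0 in 608 L1, 38.9 in 1770 L1, 55.1 in 2064 L1, 85.2 in 608 L6 and 92.3 in 2088 L1. In the quiet tumours it was 64.0 at the lowest, 100.2 at the median and 539 at the highest, so that 3 aneuploid arrays were dimmer than every quiet one. The log2 signal was 5.75 ± 0.75 against 6.93 ± 0.90 (SD), a difference of -1.18 that did not pass after adjustment (exact permutation p = 0.0205, adjusted p = 0.0547). It passed without 608 L6, 1770 L4, 2067 L2, 2094 L1, 2064 L2 or 2088 L1, each left out alone, and over all tumours left out in turn the adjusted p ran from 0.0366 to 0.185 (exact permutation).

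Spots well above background in the tumour channel were 85.4% ± 13.2 in the aneuploid and 96.9% ± 3.32 in the quiet tumours (exact permutation p = 0.0076, adjusted p = 0.0304). The lowest values were 65.0% in 608 L1, 82.1% in 1770 L1 and 85.8% in 2064 L1, against a quiet range of 88.4% to 99.99%. The SD of spots repeated on an array, a measure of technical error, was 0.22 ± 0.07 against 0.14 ± 0.03 (exact permutation p = 0.00404, adjusted p = 0.0304), with 0.32 in 608 L1 and 0.25 in 1770 L1 as the highest. Without 608 L1, 1770 L1 or 2064 L1 the adjusted p of both measures rose above 0.05, to between 0.0879 and 0.103, and with permutation within slides it was 0.0653 for each.

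Mice 1770 and 2064 each gave an aneuploid and a quiet lesion on the same slide, and these pairs were set side by side after the values were seen. The tumour signal was 38.9 in 1770 L1 against 68.7 in 1770 L4, and 55.1 in 2064 L1 against 539 in 2064 L2. Spots above background were 82.1% against 96.3% and 85.8% against 99.99%, and the SD of repeated spots was 0.25 against 0.16 and 0.24 against 0.10. In both mice the aneuploid lesion had the weaker signal and the larger SD, and with 2 pairs an exact two-sided test cannot give a p below 0.5.

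Within slide 1, spots above background were 65.0%, 82.1% and 96.5% in the 3 aneuploid tumours and 96.3% to 98.6% in 4 quiet ones. Within slide 2 they were 85.8% and 97.5% against 88.4% to 99.99%, and slide 3 held no aneuploid tumour. The Cy5 reference channel differed by -0.20 in log2 signal (adjusted p = 0.331, exact permutation) and by -0.51 percentage points in spots above background (adjusted p = 0.803, exact permutation). Noise between neighbouring probes was 0.55 ± 0.06 and 0.50 ± 0.08 (adjusted p = 0.331, exact permutation), with the highest value, 0.68, in the quiet 2064 L2. Local background and outlier-flagged spots also did not pass (adjusted p = 0.331 and 0.984, exact permutation). Fewer tumour spots above background and a larger SD of repeated spots thus moved with the aneuploid class, and their part in the classes was not tested.

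**Figure D4:**
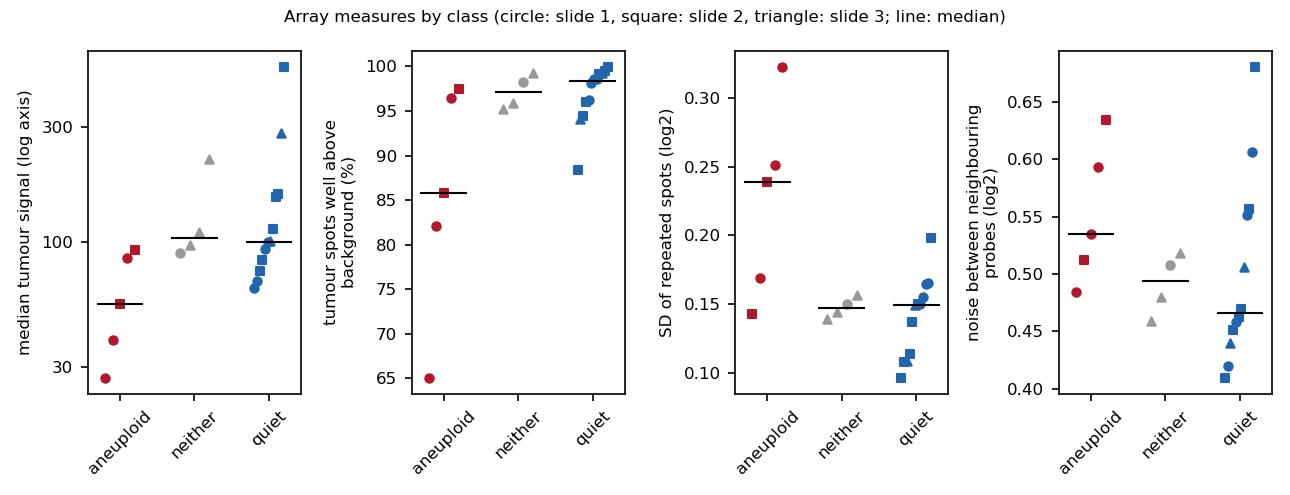
Median tumour signal (log axis), percent of tumour spots well above background, SD of repeated spots and noise between neighbouring probes in the aneuploid (5), neither (4) and quiet (12) tumours, with slides as symbols and medians as lines. Aneuploid tumours reach the lowest signal (27.0) and the highest SD of repeated spots (0.32), and the classes overlap in each measure.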

How the data were processed

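The authors deposited 1 Agilent Feature Extraction file per 2-colour array (21 arrays, 3 slides, 2 designs) with linear intensity values, spot flags and a log10 ratio, in mm9 coordinates per the file headers, and 1 table with log2 ratios after loess. Here log2(Cy3/Cy5) of the processed signals was averaged per probe, centred on the array median and averaged per autosome. The number of arrays limits the precision. Neither the members nor the gene lists were independent of the data: both were chosen with earlier results of these data known. The autosomes altered in the most aneuploid tumours (ties kept) and the listed genes with a named probe were described, and a window that passed a test was named after its values were seen. A listed gene and 1 called window are not reported here. Exact permutation tests used the absolute difference of means. Treatment within classes was tested with limma 3.58.1 (R 4.3.3) on 1-Mb windows of at least 5 probes, with mouse as a random block where its correlation could be estimated. Probes were matched to GRCm38 to obtain GC content. Class rule, permutation and limma steps were tested on simulated data. Alternatives comprised thresholds, probe sets, background correction (normexp with an offset of 50), loess, GC correction, slide, mouse and leave-one-out fits. No column of per-sample values stayed unmapped.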

Additional observations from a re-analysis of the deposited data

Results flagged for a closer look

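Of 20 groups of 4 to 10 tumours or mice examined, 2 held a sample far from the others by Dixon's ratio, where chance gives about 1 in 20. Among the aneuploid tumours, 2064 L1 had 228 outlier-flagged spots, against 98 to 123 in the other 4. Among the anti-PD1 mice, mouse 608 had a mean of 5 altered autosomes per tumour, against 0 to 1.5 in the other 6.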

How the results depend on the processing

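The class sizes moved with the threshold and with normexp background correction. Every normexp value in this section also includes an added offset of 50, so that method and offset were changed together. There were 8 aneuploid tumours at a threshold of 0.15 (26 autosomes gained, 21 lost), 3 at 0.25 (10 and 7) and 3 on probes common to both designs. After normexp with the offset there was 1 (3 and 3), and 608 L1 and 1770 L1 were quiet. The quiet class of 12 became 8 at 0.15, where 1770 L4 became aneuploid, and 17 after normexp, and held 10 to 13 under the other settings. The other 7 of 11 settings gave 4 to 6 aneuploid tumours, and 2088 L1 left the class with medians over probes, probes well above background, loess ratios, GC correction and the subtracted median profile. Without each aneuploid tumour in turn, 10 to 15 gains and 9 to 13 losses were left.

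The treatment difference in altered autosomes per tumour turned positive at 0.25 (0.0238), with medians over probes (0.0714), after normexp (0.14), with loess ratios (0.43), on common probes (0.0476), with the median profile subtracted (0.0238) and within slides (0.27), and ran from -0.87 to 0.24 without single mice. The difference in the share of aneuploid tumours turned positive at 0.25 (2.38 percentage points), after normexp (4.76), with loess ratios (7.14) and on common probes (2.38), and ran from -28.6 to -7.14 without single mice. No exact permutation p of these passed 0.05.

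Spots above background in the tumour channel no longer passed at 0.15 (difference -7.73 percentage points), at 0.25 (-14.4), with loess ratios (-9.18), on common probes (-14.5) and within slides (-11.9), and turned to 2.42 after normexp, where the aneuploid class was 1 tumour. The SD of repeated spots no longer passed at 0.15 (0.0591), after normexp (0.00885), with loess ratios (0.0660) and within slides (0.0762). Tumour signal passed with medians over probes, probes well above background and GC correction (-1.37 each), means over 1-Mb windows (-0.91) and the subtracted profile (-1.31). After normexp the reference signal (0.30), reference spots above background (1.34 percentage points) and noise (-0.0228) turned. Outlier-flagged spots turned at 0.15 (8.13), at 0.25 (15.2), with medians (6.58), 1-Mb means (8.74), well above background (6.58), loess (5.47), GC (6.58), common probes (12.7), the profile (7.13) and 1 value per mouse (7.8).

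Without single tumours, differences ran from -1.37 to -0.93 for tumour signal, -0.31 to -0.10 for reference signal, -14.5 to -6.41 for tumour spots, -0.97 to 0.40 for reference spots, -9.03 to -5.94 for background, 0.0304 to 0.0678 for noise, 0.0591 to 0.104 for the SD of repeated spots and -24.7 to 7.83 for outlier-flagged spots. Windows called by treatment in the aneuploid class numbered 1 with slide as a fixed block, 0 at 5 Mb (limma, 31 at an unadjusted p under 0.05) and 1 to 11 without single tumours. Causes were not tested. No paired analysis was possible because the treatment groups share no mice, and 2 mice with both classes are too few for a paired test of the array measures. The tumour channel was dimmest in 608 L1 and 1770 L1.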
